A study of Homo sapiens with 9 samples.

Results

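The genes of the proteins that make up the small nuclear ribonucleoprotein particles (snRNPs) of the spliceosome were examined for peaks of POLR2A, the largest RNA polymerase II subunit. The set was a given list of 36 genes out of 20046 protein-coding genes in GENCODE version 44: 18 SNRP genes, 8 LSM genes and 10 PRPF genes. All 36 were found in the annotation by symbol. POLR2A had been profiled by chromatin immunoprecipitation and sequencing in HEK293T, a human embryonic kidney cell line, under a control shRNA (genotype given as wildtype), knockdown of U2AF1 and knockdown of DHX9. U2AF1 is the smaller subunit of the U2AF heterodimer, which recognises 3′ splice sites, and DHX9 is a helicase that unwinds nucleic acids including R-loops. The labels give no further allele, agent or time after knockdown. Of the 9 samples, 2 per condition were POLR2A immunoprecipitations and 1 per condition was input chromatin. The data used were 3 deposited peak lists, 1 per condition, so replicate error is missing from every value and no difference between lists was tested. A peak was assigned to a gene when its summit, the position of highest signal, lay inside the gene or at most 1000 bp from one of its annotated transcript starts.

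The lists held 2757 peaks for the control (the control list), 1730 for U2AF1 knockdown (the U2AF1 list) and 4443 for DHX9 knockdown (the DHX9 list). The sequencing depth is unknown from the lists, and the number of weak peaks a list holds moves with depth. A gene without a peak is therefore a gene at which no peak passed the threshold, not a gene without polymerase. The lowest −log10 q in a list was 1.30 to 1.31. Of 11 lineage marker genes (kidney regulators such as PAX2, neural genes such as NEFL, and liver, erythroid and leukocyte genes) 0 had a peak in any list. The lists thus neither show nor contradict the labelled cell type.

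The spliceosome is assembled from the U1, U2, U4/U6 and U5 snRNPs, each a small nuclear RNA with its proteins. The Sm proteins form a ring around the RNA of U1, U2, U4 and U5, and the related LSm proteins form a ring at the 3′ end of U6. Further proteins are specific to 1 particle, such as SNRNP70 and SNRPC in U1, SNRPA1 and SNRPB2 in U2, and PRPF8 and SNRNP200 in U5. U11 and U12 replace U1 and U2 in the minor spliceosome, which removes a rare class of introns. U2AF1 acts with the U2 snRNP, since the U2AF factor marks the 3′ splice site before U2 binds the branch point.

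The upstream sequences of 7 members that the results turn on are shown first, since they carry the promoter arrangement and the motif matches described further on. They are read from the GRCh38 genome on the strand of the named gene, and each ends at the base before the 5′ end of that gene. For LSM5, SNRNP25 and SNRNP40 the whole gap up to the start of the neighbouring gene on the other strand is shown (AVL9, POLR3K and ZCCHC17), and for the other 4 the 150 bp upstream. Capitals mark matches, on either strand, to the GC box, CCAAT box, ETS core or NRF1 motif, whose letters or names are given with the promoter windows. In LSM5 (chr7:32495284-32495425, minus strand) the gap had a GC content of 73.9%, and in SNRNP25 (chr16:53609-53827, plus strand) 71.2%. In SNRNP40 (chr1:31296789-31296981, minus strand) it was 52.3%. The other sequences are those of SNRNP70 (chr19:49085269-49085418, plus strand), PRPF38B (chr1:108692160-108692309, plus strand), SNRPB (chr20:2470854-2471003, minus strand) and SNRPG (chr2:70293741-70293890, minus strand). Only the window of PRPF38B overlapped an annotated exon, that of the long non-coding RNA gene ENSG00000290126.
LSM5: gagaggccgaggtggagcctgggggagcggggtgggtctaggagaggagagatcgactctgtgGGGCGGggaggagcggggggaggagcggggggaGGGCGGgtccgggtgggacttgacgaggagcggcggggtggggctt
SNRNP25: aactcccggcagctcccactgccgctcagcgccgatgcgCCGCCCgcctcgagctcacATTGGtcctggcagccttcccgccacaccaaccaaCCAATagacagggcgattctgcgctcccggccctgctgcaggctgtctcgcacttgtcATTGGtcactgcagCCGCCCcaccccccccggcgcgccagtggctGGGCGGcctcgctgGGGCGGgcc
SNRNP40: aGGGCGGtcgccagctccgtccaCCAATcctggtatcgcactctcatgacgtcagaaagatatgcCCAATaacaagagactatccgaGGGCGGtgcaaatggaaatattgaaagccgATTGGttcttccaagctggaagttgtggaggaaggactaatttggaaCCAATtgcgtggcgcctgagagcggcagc
SNRNP70: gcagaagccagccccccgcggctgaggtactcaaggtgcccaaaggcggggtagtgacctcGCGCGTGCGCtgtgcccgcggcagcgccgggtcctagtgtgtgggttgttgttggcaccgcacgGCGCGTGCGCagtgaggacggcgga
PRPF38B: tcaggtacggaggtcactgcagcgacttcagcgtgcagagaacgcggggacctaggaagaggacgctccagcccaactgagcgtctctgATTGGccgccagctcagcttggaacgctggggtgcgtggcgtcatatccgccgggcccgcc
SNRPB: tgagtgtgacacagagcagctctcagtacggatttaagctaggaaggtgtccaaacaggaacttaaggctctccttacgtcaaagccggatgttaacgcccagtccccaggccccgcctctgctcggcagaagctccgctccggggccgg
SNRPG: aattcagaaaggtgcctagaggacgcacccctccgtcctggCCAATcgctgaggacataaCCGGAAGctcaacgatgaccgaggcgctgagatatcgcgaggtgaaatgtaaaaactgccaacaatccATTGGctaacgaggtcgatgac

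A POLR2A peak was listed in at least 1 condition at 15 of the 36 snRNP protein genes, and 21 members (58.3%) had a peak in no list, against 73.6% of all protein-coding genes. In the control list 5 of 36 members had a peak (13.9%), against 13.2% of all protein-coding genes. In the U2AF1 list 2 of 36 had one (5.56%), against 7.34% of all protein-coding genes. In the DHX9 list 13 of 36 had one (36.1%), against 22.2%. At full list length the control and U2AF1 shares lie close to the background of their lists, and the DHX9 share lies above it. Each list was also cut to its 1730 most significant peaks. Then 5 members (13.9%) had a peak in the DHX9 list, 5 (13.9%) in the control list and 2 (5.56%) in the U2AF1 list. Under that setting 8.96%, 8.45% and 7.34% of all protein-coding genes had a peak. The DHX9 and control shares then both lay above their backgrounds, on 5 members each, and the difference was not tested.

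**Figure D1:**
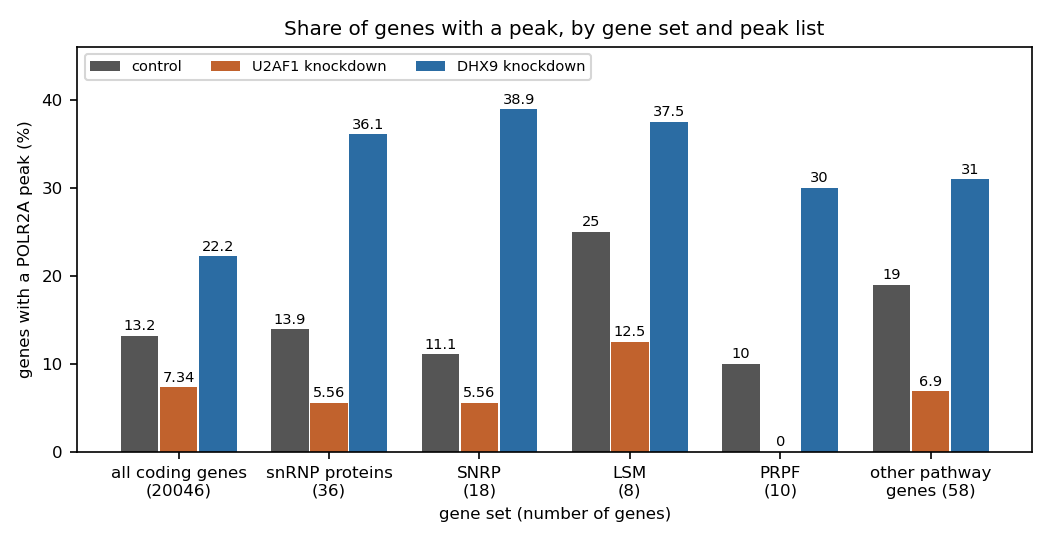
Percentage of genes with a POLR2A peak (vertical axis) in each gene set (horizontal axis, number of genes in brackets), with 1 bar per peak list and no error bars because each condition has 1 list. The snRNP protein genes stand at 13.9%, 5.56% and 36.1% in the control, U2AF1 and DHX9 lists, beside 13.2%, 7.34% and 22.2% of all coding genes.

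The genes differed between lists. No member had a peak in all 3 lists, against 4.34% of all protein-coding genes. All 5 control members lacked a peak in the U2AF1 list (13.9% of the 36, against 8.39% of all protein-coding genes), and the 2 U2AF1 knockdown members lacked one in the control list (5.56%, against 2.53%). So 0 members were shared by these lists, whereas over all protein-coding genes 36.5% of the control genes and 65.6% of the U2AF1 knockdown genes were shared. With counts of 5 and 2 the numbers are too small to read a difference from the background.

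The control and DHX9 lists had 4 members in common, which is 80.0% of the control members and 30.8% of the DHX9 knockdown members. Over all protein-coding genes the shares were 76.1% and 45.3%. These 4 were SNRNP70, SNRNP25, LSM5 and PRPF38B. LSM4 alone was in the control list and not in the DHX9 list (2.78%, against 3.16% of all protein-coding genes). In the other direction 9 members had a peak in the DHX9 list and none in the control list (25%, against 12.1%). With lists cut to equal length the counts were 4 and 4, and with peaks of a −log10 q of at least 5 they were 4 and 7. For these settings the same counts over all protein-coding genes were not made. Both sets of counts use 1 control list, so those against it are not independent.

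Between the knockdown lists, 12 members had a peak under DHX9 knockdown and none under U2AF1 knockdown (33.3%, against 16.3% of all protein-coding genes). SNRPD1 was the only member with the reverse pattern (2.78%, against 1.51%), and LSM7 was the only one shared. Relative to the U2AF1 list, the DHX9 list held 2.57 times the peaks, 3.02 times the protein-coding genes and 6.5 times the members. With lists cut to equal length 5 members had a peak under DHX9 knockdown and 2 under U2AF1 knockdown, and the count of 12 became 4. With peaks of a −log10 q of at least 5 it was 7. The matching counts over all protein-coding genes were not made for these 2 settings.

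Values for single peaks follow. The fold enrichment is the authors' own ratio and is given with the rank of the peak by that ratio within its list, where rank 1 is the highest. Values of a gene from different lists are given side by side and not read as a change, because they depend on the library and on the list length. A rank percentile is the rank as a percentage of the list. The median over members was 48.3, 37.1 and 48.5 in the control, U2AF1 and DHX9 lists, against 45.4, 42.4 and 45.7 for all protein-coding genes with a peak. The member peaks were thus of middling strength, and the best ranked of each list stood at percentile 24.3, 18.0 and 15.3.

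**Figure D2:**
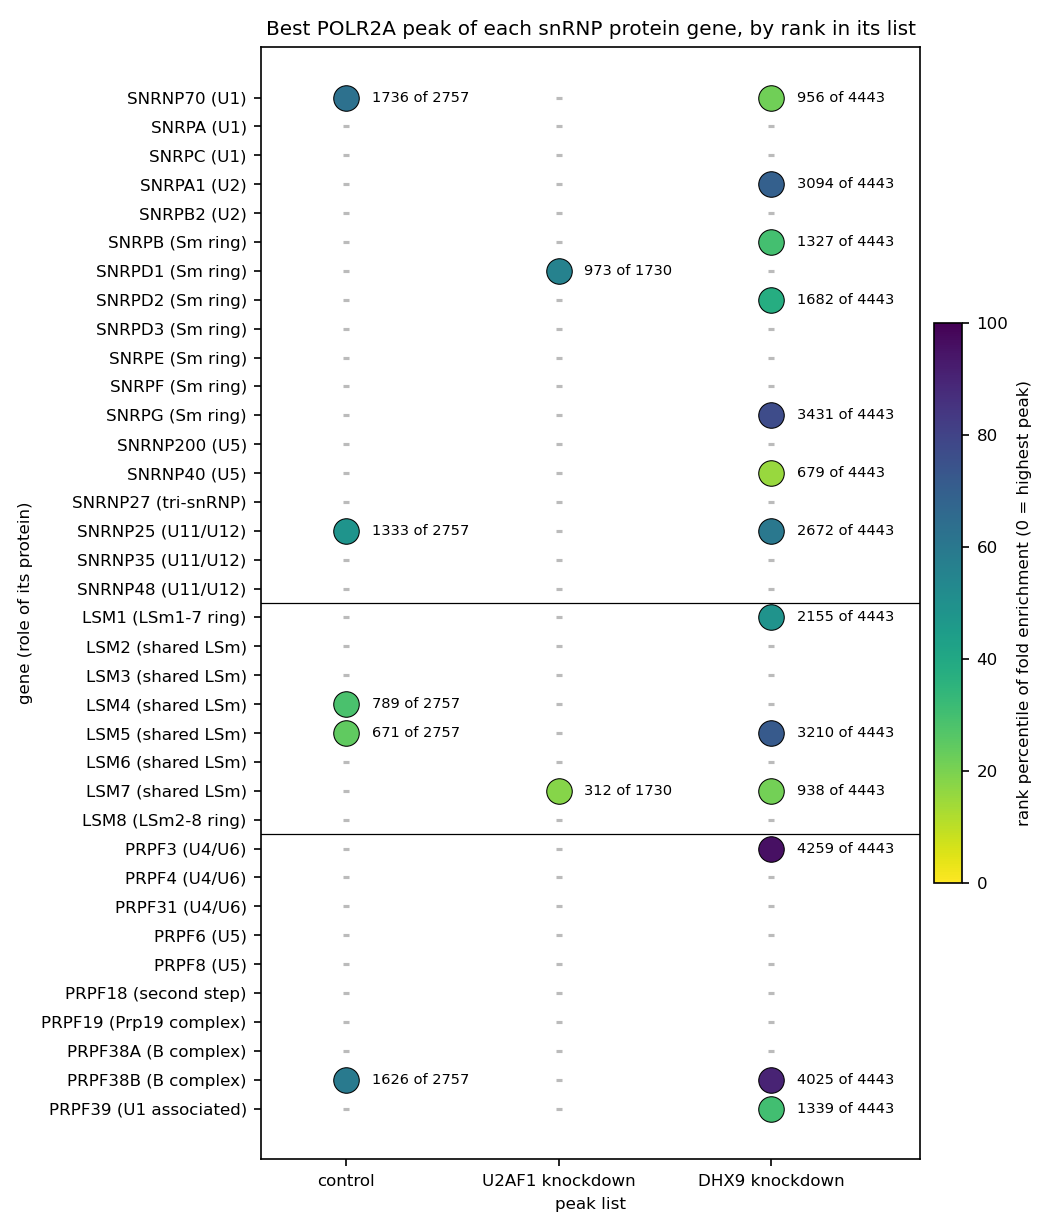
Each row is 1 of the 36 genes with the role of its protein, each column 1 peak list, and each circle the best peak of the gene, coloured by its rank percentile (0 is the highest fold enrichment) and labelled with rank and list length; a dash means no peak. The 5, 2 and 13 circles fall in different rows in the control and U2AF1 knockdown columns, and no row has 3 circles.

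Of the U1 proteins, SNRNP70, which binds the first stem-loop of U1 RNA, had a peak in 2 lists. The control peak (chromosome 19, 49085432 to 49085649) was enriched 3.75-fold, at rank 1736 of 2757. The DHX9 knockdown peak (49085333 to 49085628) was enriched 6.67-fold, at rank 956 of 4443. They shared 197 bp, their summits lay 11 bp apart, in the 5′ untranslated region of annotated transcripts, and no peak was listed under U2AF1 knockdown. SNRPA, which binds the second stem-loop, and SNRPC, which helps U1 to pair with the 5′ splice site, had no peak in any list. PRPF39, a U1-associated protein, had a peak under DHX9 knockdown only (chromosome 14, 45084087 to 45084317), at 6.14-fold enrichment and rank 1339 of 4443.

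Of the U2 proteins, SNRPA1 had a peak under DHX9 knockdown (chromosome 15, 101295071 to 101295664), at 4.59-fold enrichment, rank 3094 of 4443 and the summit 3 bp upstream of an annotated start. SNRPB2, its partner on U2 RNA, had no peak in any list. The nearest summit to SNRPB2 was 1238707, 1238728 and 1238713 bp from its start in the control, U2AF1 and DHX9 lists.

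Of the 7 Sm ring genes, 0 had a control peak, against 13.2% of all protein-coding genes. A DHX9 knockdown peak was found at 3 (42.9%, against 22.2%) and a U2AF1 knockdown peak at 1 (14.3%, against 7.34%). Under U2AF1 knockdown this was SNRPD1 (chromosome 18, 21612360 to 21612577), at 4.53-fold enrichment and rank 973 of 1730. Its −log10 q of 3.61 was the lower of the 2 members in that list. Under DHX9 knockdown SNRPB (chromosome 20, 2470567 to 2470902) was enriched 6.18-fold, at rank 1327 of 4443. SNRPB codes for the B and B′ proteins, and its summit lay in an exon, 4 bp upstream of its nearest annotated start. SNRPD2 (chromosome 19, 45692692 to 45693005) was enriched 5.79-fold, at rank 1682, and SNRPG (chromosome 2, 70293575 to 70294129) was enriched 4.33-fold, at rank 3431. SNRPD3, SNRPE and SNRPF, which complete the ring, had no peak in any list, so no condition had a peak at every gene of the ring.

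Of the U5 and tri-snRNP proteins, SNRNP40, a U5 protein with a repeat fold that serves as a platform for other proteins, had the best ranked member peak of the DHX9 list (chromosome 1, 31296570 to 31297223, fold enrichment 7.27, rank 679 of 4443). At 654 bp it was also the widest member peak. It was not listed in the other conditions. The large U5 proteins, PRPF8 and the helicase SNRNP200, had no peak in any list, nor did PRPF6 or SNRNP27. Of the U4/U6 proteins PRPF3, PRPF4 and PRPF31, PRPF3 alone had a peak, under DHX9 knockdown (chromosome 1, 150321218 to 150321604). At 2.88-fold enrichment, rank 4259 of 4443 and a −log10 q of 1.86 it was the weakest member peak in that list.

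Of the proteins of the minor spliceosome, SNRNP25 had a peak in 2 lists and SNRNP35 and SNRNP48 in none. The control peak of SNRNP25 (chromosome 16, 53890 to 54124) was enriched 4.18-fold, at rank 1333 of 2757. The DHX9 knockdown peak (53433 to 54069) was enriched 4.91-fold, at rank 2672 of 4443. Their summits were 6 bp apart, the closest agreement of any member between lists, and lay over coding sequence or 5′ untranslated sequence, depending on the transcript. The DHX9 knockdown peak was 637 bp wide and the control peak 235 bp, and only the wider one reached across the gap to the start of POLR3K.

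Of the other PRPF genes, PRPF38B, a relative of the B complex protein PRPF38A, had peaks in the control list (chromosome 1, 108692051 to 108692403, fold enrichment 3.85, rank 1626 of 2757) and in the DHX9 list (108692128 to 108692427, fold enrichment 3.66, rank 4025 of 4443). They shared 276 bp, but the summits lay 148 bp apart. The control summit stood 137 bp upstream of the nearest PRPF38B start and 15 bp from a start of the long non-coding RNA gene ENSG00000290126, while the DHX9 knockdown summit stood 3 bp upstream of a PRPF38B start. PRPF38A, PRPF18, which acts in the second step of splicing, and PRPF19, the ubiquitin ligase of the Prp19 complex, had no peak in any list. Over the PRPF family the counts were 1, 0 and 3 of 10 in the control, U2AF1 and DHX9 lists. These are 10.0%, 0.0% and 30.0%, against 13.2%, 7.34% and 22.2% of all protein-coding genes.

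The LSM family had 2, 1 and 3 of 8 genes with a peak in the same order, and the SNRP family 2, 1 and 7 of 18. LSM7, shared by the nuclear ring on U6 and the cytoplasmic ring that acts in mRNA decay, had the best ranked member peak of the U2AF1 list (chromosome 19, 2328647 to 2328868, fold enrichment 6.34, rank 312 of 1730). Its DHX9 knockdown peak (2328407 to 2328932) was enriched 6.72-fold, at rank 938 of 4443, and contained the whole 222 bp of the other. LSM5 had the best ranked member peak of the control list (chromosome 7, 32495553 to 32495791, fold enrichment 5.15, rank 671 of 2757) and a peak in the DHX9 list too (32495557 to 32495784, fold enrichment 4.48, rank 3210 of 4443). LSM4 had a peak in the control list only (chromosome 19, 18322818 to 18323079, fold enrichment 4.94, rank 789). LSM1, which is specific to the cytoplasmic ring, had a peak under DHX9 knockdown only, at 5.32-fold enrichment and rank 2155 of 4443. LSM8, which takes the place of LSM1 in the nuclear ring, had no peak in any list, and neither had LSM2, LSM3 or LSM6.

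All 20 member peaks lay at promoters. No summit was farther than 1000 bp from a start of its gene, and 18 of 20 lay within 200 bp. By list these were 80.0%, 100% and 92.3% of the control, U2AF1 and DHX9 members with a peak. For all protein-coding genes with a peak the shares were 79.7%, 73.9% and 78.4%, so a summit near a start was common in these lists. The median summit offset of the control, U2AF1 and DHX9 members was 19.0, -66.5 and -3.00 bp, where negative is upstream. All protein-coding genes with a peak had medians of 23.0, 34.0 and 18.0 bp. The U2AF1 knockdown value is the median of 2 peaks, at -182 and 49 bp. The sign of the negative medians depended on the assignment: with each peak given only to the nearest coding start they were 49 and 8 bp, and from the 5′ end of the gene the DHX9 knockdown median was 57 bp. With equal list lengths it was 8 bp. Of the 20 summits 8 lay upstream of the gene, 10 in an exon and 2 in an intron, those of LSM4 and PRPF3.

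Several of these promoters serve 2 genes. For 12 of 36 members (33.3%) a protein-coding gene on the other strand had a transcript start within 1000 bp upstream of the 5′ end of the member, against 13.2% of all protein-coding genes and 21.7% of those with a peak in any list. The share was 6 of 15 (40.0%) among members with a peak in any list and 6 of 21 (28.6%) among those with none. These 2 shares rest on few genes and the difference was not tested.

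At 6 of the 20 member peaks the summit lay nearer to a start of the neighbouring gene than to one of the member. The LSM genes made up most of these, with 5 of their 6 peaks, against 1 of 10 SNRP peaks and 0 of 4 PRPF peaks. These counts are not independent, since a gene with a peak in more than 1 list, such as LSM5 or LSM7, is counted once per list. Counted by gene, they were 3 of 4 LSM, 1 of 8 SNRP and 0 of 3 PRPF members with a peak. The contrast between families thus rests on few genes and was not tested. No matching share over all protein-coding genes is given. The control summit at LSM5 lay 387 bp upstream of LSM5 but 144 bp from a start of AVL9, and the DHX9 knockdown summit 309 bp and 66 bp. In both lists the interval lay wholly on the AVL9 side of the gap shown above. At LSM7 the start of SPPL2B was 97 bp from the U2AF1 knockdown summit and 46 bp from the DHX9 knockdown summit, against 182 bp and 131 bp to LSM7. The start of BAG4 was 19 bp from the LSM1 summit, against 144 bp, and that of QPCTL was 4 bp from the SNRPD2 summit, against 193 bp. At SNRNP25 and SNRNP40 the summit lay nearer to the member, at 41 to 79 bp, and the start of POLR3K or ZCCHC17 was 279 to 338 bp away.

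When each peak was given only to the protein-coding gene with the nearest start, 4 members in the control list, 1 in the U2AF1 list and 9 in the DHX9 list had a peak, against 10.7%, 6.01% and 18.3% of all protein-coding genes. LSM4 in the control list was then the only LSM gene with a peak in any list. SNRPD1 was the only member left in the U2AF1 list. The peaks record polymerase on either strand, so which of 2 divergent genes it transcribed cannot be told apart.

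**Figure D3:**
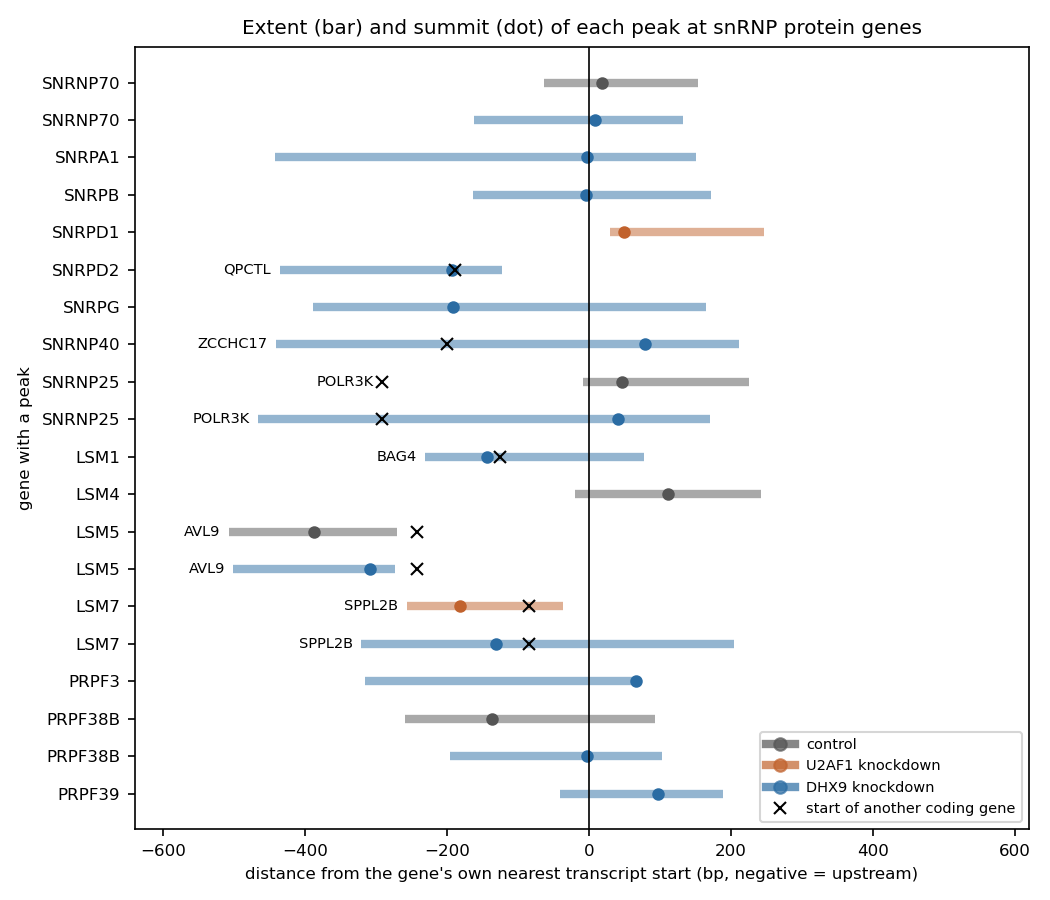
Each bar is 1 of the 20 peaks at snRNP protein genes, drawn from edge to edge in bp from the nearest transcript start of the gene (0, negative is upstream) and coloured by peak list; the dot is the summit and the cross the nearest start of another coding gene within 1000 bp of it. All dots lie between -387 and 112 bp, and at LSM1, LSM5, LSM7 and SNRPD2 the dot is nearer to the cross than to 0.

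Promoters of the members were compared with others by sequence. RefSeq promoter windows (GRCh38.p14, 250 bp before to 50 bp after the start) were matched by symbol for 30 of the 36 members and for 15344 protein-coding genes. An ETS core (CCGGAAG, either strand), the binding sequence of ETS family activators, was found in 13 of 30 members (43.3%), against 14.4% of all windows and 21.1% of those of genes with a peak in any list. A CCAAT box (CCAAT), the NF-Y sequence, was found in 15 of 30 (50.0%), against 36.7% and 35.4%. The GC box (GGGCGG), bound by SP factors, was in 17 of 30 (56.7%), against 59.5% and 75.6%. The NRF1 motif was in 6 (20.0%), against 8.65% and 15.9%.

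Rarer matches were the YY1 sequence (AAGATGGCG, whose first letters can overlap an ETS core) in LSM7 and PRPF38B (6.67%, against 2.81% of all windows) and a TATA box (TATAAA) in SNRPC alone (3.33%, against 9.74%). Members with and without a peak held the ETS core in 5 of 11 and 8 of 19 windows (45.5% and 42.1%), so the peak lists did not separate members by this motif. A match is a run of letters and says nothing of binding. Among the sequences shown, SNRNP70 has 2 NRF1 matches, SNRPG an ETS core between its CCAAT boxes, and SNRPB none of the motifs within its 150 bp. The RefSeq promoter window of SNRPB, which is a different stretch, did hold an ETS core. The gaps of SNRNP25 and SNRNP40 have 3 and 4 CCAAT boxes.

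**Figure D4:**
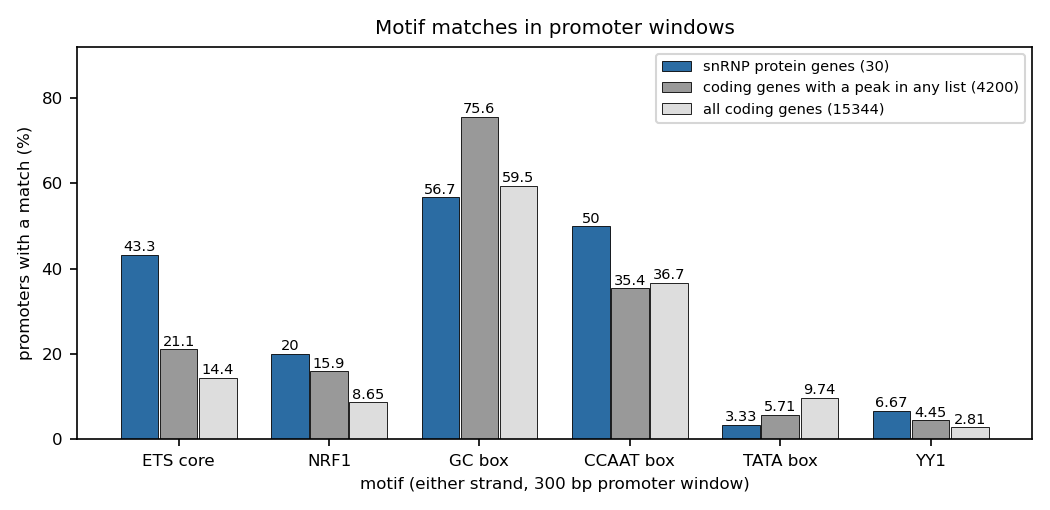
Percentage of 300 bp promoter windows with at least 1 match on either strand (vertical axis) for each motif (horizontal axis), in snRNP protein genes, in coding genes with a peak in any list and in all coding genes, with the number of windows in brackets. The ETS core stands at 43.3%, 21.1% and 14.4% in these sets, and the GC box at 56.7%, 75.6% and 59.5%.

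Base composition was described for all 36 members from the genome. The GC content from 250 bp upstream to 50 bp downstream of the 5′ end had a median of 64.0% in the 15 members with a peak in any list and 57.3% in the 21 without. Over all protein-coding genes it was 65.3% with a peak and 58.3% without, which is the same direction. GC skew, the excess of G over C on the coding strand divided by their sum, was positive over the 500 bp downstream of the 5′ end in 30 of 36 members (83.3%), against 64.9% of all protein-coding genes. It is a feature known to favour R-loops, hybrids of RNA and DNA that are the subject of the series. Positive skew was found in 11 of 15 members with a peak (73.3%) and 19 of 21 without (90.5%). Over all protein-coding genes the shares ran the other way, at 68.0% with a peak and 63.8% without, and the difference was not tested. The highest skew, 0.43, was at PRPF3 and the lowest, -0.12, at LSM5.

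Genes that work with these proteins were taken from fixed lists of 58: snRNP assembly factors, further tri-snRNP and U5 proteins, U1 partners, minor spliceosome proteins, Prp19 complex partners and Sm or LSm relatives. Of these, 11 (19.0%) had a peak in the control list, 4 (6.90%) in the U2AF1 list and 18 (31.0%) in the DHX9 list. Over all protein-coding genes the shares were 13.2%, 7.34% and 22.2%. The lists stood in the same order for the members, for these partner genes, for all protein-coding genes and by number of peaks. A peak in all lists was found at 3 of the 58, GEMIN6, TXNL4A and LUC7L, where 4.34% of all protein-coding genes had one. GEMIN6, part of the SMN complex that loads Sm rings onto RNA, stood at ranks 250, 122 and 248 of the control, U2AF1 and DHX9 lists, above any member in each. Its summits in these lists had offsets of -213, -217 and -206 bp from the nearest GEMIN6 start, where negative is upstream. Whether a start of another gene lay nearer to the summit was not examined for the partner genes.

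TXNL4A, a small U5 protein, ranked 813, 930 and 1820 in the same order, and LUC7L, a U1 partner in splice site choice, ranked 1824, 626 and 282. DDX20, the helicase of the SMN complex, was also among the 3 best ranked of the control list, at rank 1129. Assembly factors had 5, 2 and 6 of 20 genes with a peak, other tri-snRNP and U5 proteins 3, 1 and 3 of 10, and U1 partners 2, 1 and 4 of 6. Among the 6 minor spliceosome genes only ZCRB1 had a peak, and among the 9 Prp19 complex partners only ISY1, each under DHX9 knockdown alone. The Sm and LSm relatives had 1, 0 and 3 of 7, with LSM10, a protein of the histone-processing U7 particle, at rank 701 of 4443 under DHX9 knockdown.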

How the data were processed

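POLR2A ChIP-seq of HEK293T cells was used as 3 peak lists deposited by the authors, 1 per condition. The labels name the same list for replicates 1 and 2 of a condition. The control peak names carry a suffix that reads as replicate 1, so whether replicates were pooled is not given in the sources used here. Bowtie2 2.4.5, MACS2 2.2.7.1, deepTools 3.5.1 and the build hg38 are named in the submitters' processing notes, with no role. The deposited values are a fold enrichment (a ratio whose background is not stated), −log10 p and −log10 q, and a score that was not used. Depth is not given, and the handling of input is not stated.

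Peaks were assigned to GENCODE 44 genes with Python 3.11.15 and pandas 2.3.3. The assignment was checked on simulated peaks. On the annotated chromosomes lay 2675, 1630 and 4316 peaks of the control, U2AF1 and DHX9 lists. The best peak of a gene is that of highest fold enrichment. No test was made, since there is 1 list per condition, and shares of a fixed set of genes carry no interval. Genes to be described in full were the best ranked members of each list, those with a peak in 1 list and not another, and those whose rank percentile differed by over 25 points between lists (used to choose genes and not as a result), which came to all members with a peak; related genes were the 3 best ranked of each list, of which 1 is not reported here. Members and lists were chosen with earlier results of these data known. The alternatives tried were a −log10 q of at least 5, equal list lengths, windows of 500 and 2000 bp, start windows alone, the gene 5′ end alone, the nearest coding start, the whole interval, and ranking by −log10 p.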

Additional observations from a re-analysis of the deposited data

How the results depend on the processing

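No paired analysis was possible because there is 1 peak list per condition, which also prevents leaving 1 replicate out. Whether a list stands for both replicates is not given. Of the alternative values of the main results 125 stayed within 1.5 times a count or within the interval of a median (the range, below 6 peaks), and 14 moved. Windows of 500 and 2000 bp, start windows alone, the gene 5′ end alone, whole intervals and ranking by −log10 p moved 0 of them.

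With equal list lengths the DHX9 list had 5 members, 4 of them without a control peak and 4 without a U2AF1 knockdown peak, and 4 control members had no DHX9 knockdown peak. The median rank percentile of control members was 72.3. By construction the setting drops weak peaks of the longer lists. Keeping peaks with −log10 q at or above 5, the DHX9 list had 8 members, 7 of them without a U2AF1 knockdown peak, and 4 control members were without a DHX9 knockdown peak. The U2AF1 list then had 1 member, LSM7, which had no control peak, and 0 members without a DHX9 knockdown peak. The control median was 67.2. At this threshold 9.59%, 4.23% and 14.7% of all protein-coding genes had a peak in the control, U2AF1 and DHX9 lists. With the nearest coding start the U2AF1 list had 1 member, SNRPD1, without a control peak. For these settings, counts of genes in 1 list and not another were not made over all protein-coding genes. The member counts are therefore not read as a trait of the members. Sequencing depth is unknown, so what it limits could not be measured.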

Other observations

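The annotation holds 68 pseudogenes named after 14 of the snRNP protein genes. Within 1000 bp of these pseudogenes 0 had a peak in any of the 3 lists. Among members without a peak, the nearest summit of the control list lay 14885 bp from a start (SNRNP200), that of the U2AF1 list 8273 bp (SNRPG) and that of the DHX9 list 7787 bp (PRPF19). At the starts of protein-coding genes in general, 19.2% of control peaks, 18.7% of U2AF1 knockdown peaks and 18.0% of DHX9 knockdown peaks lay within 1000 bp of starts of more than 1 coding gene.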
